A study of Homo sapiens with 12 samples.

Results

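SKOV3, an ovarian cancer line, and MDA-MB-231, a breast cancer line, were both exposed to 20 µM tipifarnib for 48 h, and the difference between their transcript responses was measured for every gene. The members are the 8 of 12 RNA-seq libraries that come from these lines, chosen by cell line and dose and not by any measured value. Each line gave 4 libraries: cells with a control lentiviral vector in DMSO, the same cells in tipifarnib, cells with a lentiviral MYC expression vector in DMSO, and those cells in tipifarnib. The MYC vector carried full-length human MYC, cells that overexpressed it were selected as stable lines with puromycin, and the controls were transduced with the vector lacking MYC. Per the study's design the parental lines have no MYC amplification. The other line, lung cancer A549, received 10 µM tipifarnib. Its 4 libraries entered the filter on low counts and the estimate of the spread but not the comparison, because the dose differed; a few A549 values are given side by side. The study asked which genes go with the change in tipifarnib sensitivity that MYC brings; the comparison of these lines at equal dose asks instead which parts of the tipifarnib response depend on the line.

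Tipifarnib inhibits farnesyltransferase, the enzyme that attaches a farnesyl lipid to proteins ending in a CAAX motif, among them RAS proteins, nuclear lamins and RHOB. SKOV3 cells are known for amplified ERBB2, and MDA-MB-231 cells for a mesenchymal phenotype. The interferon response, which takes up much of the results below, starts when cytosolic sensors such as IFIH1 and RIGI bind double-stranded RNA. Secreted interferon then acts through transcription factors, STAT2 and IRF9 among them, that bind interferon-stimulated response elements in the promoters of antiviral genes such as the IFIT and OAS families.

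A tipifarnib change is the log2 ratio of a tipifarnib library to the DMSO library of the same line and vector. The difference is the change in SKOV3 minus the change in MDA-MB-231, and it is positive where SKOV3 had the higher change. Values after ± are standard errors (SE) worked back from the test, as the absolute fitted value divided by the square root of its F statistic. There are 2 pairs a side, the control-vector pair and the MYC-vector pair. Genes were tested with edgeR's quasi-likelihood method, and a gene was called if its p, adjusted by Benjamini-Hochberg over 17096 genes, came under 0.05, and "rose" or "fell" is written only of genes that passed this test within a line. Levels are in CPM, read counts scaled to library size. The labels name no repeat culture of a condition, so the p-values measure the spread between these libraries, which includes any dependence of the tipifarnib change on the MYC vector. Libraries were made from whole cultures, so fewer responding cells and a smaller response per cell cannot be told apart.

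The 8 libraries held 20481363 to 26962994 gene counts, and mitochondrial genes took 3.65% to 5.59% of them. Most SKOV3 markers, but only some MDA-MB-231 markers, followed their labels. ERBB2 lay between 1168.6 and 5746.7 CPM in the SKOV3 libraries and between 56.0 and 77.3 in MDA-MB-231, and PAX8, an ovarian lineage factor, between 172.5 and 265.3 against 2.20 and 8.46. AXL and ZEB1 were higher in MDA-MB-231 at each matched vector and treatment, and so was VIM except in the MYC-vector tipifarnib libraries. SPARC, TGFBI and MSN, listed as MDA-MB-231 markers, went against the list and were higher in SKOV3 in all 4 matched comparisons, and CAV1 and LOXL2 in 3 of 4. The SKOV3 marker KRT18 was higher in MDA-MB-231 in 3 of 4. Of the immune markers PTPRC, CD3E and CD68 had at most 10 counts in any of the 8 libraries, and CD14 had 0 to 4 in SKOV3 and went from 26 to 2 and from 19 to 4 in MDA-MB-231. MYC itself (ENSG00000136997.10) went in SKOV3 from 48.4 to 99.7 CPM with the control vector and from 493.7 to 610.1 with the MYC vector, and in MDA-MB-231 from 147.6 to 348.9 and from 708.8 to 1593. The MYC-vector libraries were thus above the control-vector libraries of the same line and treatment in each case. MYC rose in MDA-MB-231 (1.20 ± 0.26) and did not pass in SKOV3 (0.66 ± 0.27), and the difference of -0.54 ± 0.37 did not pass (adjusted p = 0.409).

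The tipifarnib response differed between the lines at 1268 genes, 7.42% of those tested. At 618 of them (3.61%) the change was higher in SKOV3, and at 650 (3.8%) it was higher in MDA-MB-231. Within the lines, 2629 genes changed in SKOV3 (15.4% of those tested; 1192 rose and 1437 fell) and 4112 in MDA-MB-231 (24.1%; 1955 rose and 2157 fell). The same direction was called in both lines at 961 genes, of which 426 rose and 535 fell. Opposite directions were called in both lines at fewer genes: 42 rose in SKOV3 and fell in MDA-MB-231, and 74 did the reverse. Each of the 1268 called genes had both pair changes of one line above both of the other, which 59.5% of all tested genes also had.

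Most of the 1268 genes passed the within-line test in 1 line and not in the other, although the fitted changes had opposite signs at 904 of them and the same sign at 364. Of the 618 with a higher change in SKOV3, 338 fell in MDA-MB-231 without a call in SKOV3, 181 rose in SKOV3 without a call in MDA-MB-231, 24 fell in both and 15 rose in both. Of the 650 with a higher change in MDA-MB-231, 341 and 172 were likewise called in 1 line, as rises in MDA-MB-231 and falls in SKOV3, 18 rose in both and 7 fell in both. The absolute change was larger in MDA-MB-231 at 795 of the 1268 genes and larger in SKOV3 at 473. Across the 11971 genes with a mean of at least 1 CPM in each line, the fitted changes of the lines correlated with Pearson's r = 0.386. The changes of the control and MYC pairs correlated with r = 0.737 within SKOV3 and 0.81 within MDA-MB-231, against 0.402 between the control pairs of the lines and 0.302 between their MYC pairs. These are correlations across genes, which are not independent replicates; pairs within a line share the line, and pairs between lines share the vector.

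**Figure D1:**
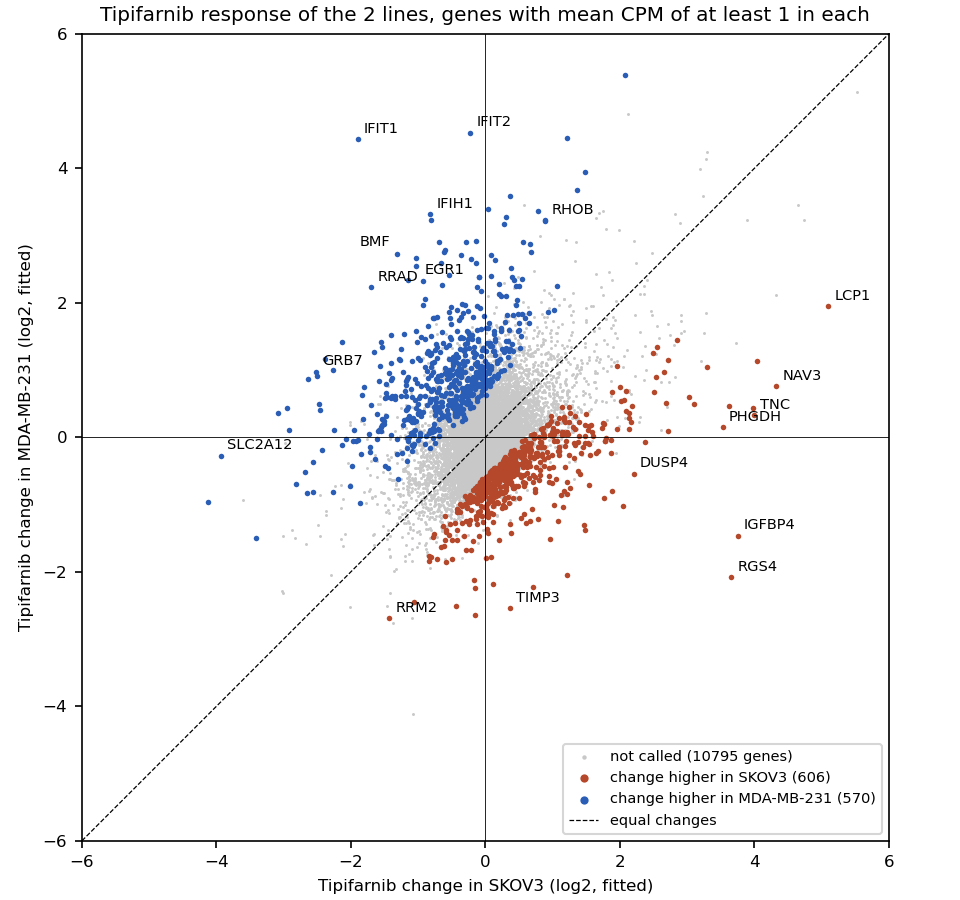
Fitted tipifarnib change (log2) in SKOV3 on the x axis and in MDA-MB-231 on the y axis for the 11971 genes with a mean of at least 1 CPM in each line; points are genes, and the dashed line marks equal changes. Of these genes 1176 were called: those higher in SKOV3 lie below the line and those higher in MDA-MB-231 above it, with IFIT1, IFIT2 and IFIH1 at the top and RGS4 and IGFBP4 at the lower right.

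These counts rest on both pairs of each line. Without the control-vector pair of SKOV3 762 genes were called, without its MYC-vector pair 135, without the control-vector pair of MDA-MB-231 10 and without its MYC-vector pair 4. Among the genes named below, IFIT2, IFIH1, IGFBP4 and CYP1B1 were called in each of these 4 fits, and no gene list had more than 2 called members without either pair of MDA-MB-231. Where the pairing of tipifarnib and DMSO libraries by vector is dropped, no gene passed in edgeR (0 called, 1963 at an unadjusted p under 0.05, against 4238 with pairing), while DESeq2 with pairing called 1821.

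Interferon-stimulated genes rose in MDA-MB-231 and, as a group, did not rise in SKOV3. IFIT1 (ENSG00000185745.8), whose protein binds viral RNA that lacks host cap methylation, had the largest negative difference among called genes with a mean of at least 1 CPM in each line. In MDA-MB-231 it went from 8.02 to 209.4 CPM in control-vector cells and from 4.39 to 76.2 in MYC-vector cells, and in SKOV3 from 11.1 to 4.67 and from 8.08 to 0.895. Both MDA-MB-231 tipifarnib libraries lay above every other library and both SKOV3 tipifarnib libraries below their own DMSO libraries. The gene rose in MDA-MB-231 (4.44 ± 0.37, adjusted p = 0.000181) and fell in SKOV3 (-1.90 ± 0.42, adjusted p = 0.0153), a difference of -6.33 ± 0.55 (adjusted p = 0.00208).

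IFIT2 (ENSG00000119922.7), a related RNA-binding protein, went from 15 to 404 CPM and from 7.28 to 141 in the control and MYC pairs of MDA-MB-231. The SKOV3 libraries held 4.73 and 4.43 CPM in the control pair and 3.40 and 2.60 in the MYC pair. Its groups did not overlap after treatment, and the difference was -4.75 ± 0.33 (adjusted p = 0.000752). IFIH1 (ENSG00000115267.5), the sensor MDA5, went from 5.38 to 64.6 and from 3.32 to 26.7 CPM in MDA-MB-231, and from 6.03 to 3.35 and from 7.03 to 4.03 in SKOV3. The DMSO levels of IFIH1 thus lay between 3.32 and 7.03 CPM in both lines, and the tipifarnib libraries moved apart in opposite directions. It rose by 3.32 ± 0.20 in MDA-MB-231 and fell in SKOV3 (-0.83 ± 0.22, adjusted p = 0.0306), with a difference of -4.15 ± 0.29 (adjusted p = 0.000752).

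Promoters of 3 called members of the interferon response list, each with matches to the interferon-stimulated response element, are shown as examples. Sequences are from RefSeq (GRCh38.p14), 300 bases each that end shortly after the annotated start, written 5′ to 3′ in the direction of the gene. Capitals mark matches to GAAANNGAA, the core of the interferon-stimulated response element, on either strand.
IFIT1 promoter, chr10:89392373-89392672, plus strand: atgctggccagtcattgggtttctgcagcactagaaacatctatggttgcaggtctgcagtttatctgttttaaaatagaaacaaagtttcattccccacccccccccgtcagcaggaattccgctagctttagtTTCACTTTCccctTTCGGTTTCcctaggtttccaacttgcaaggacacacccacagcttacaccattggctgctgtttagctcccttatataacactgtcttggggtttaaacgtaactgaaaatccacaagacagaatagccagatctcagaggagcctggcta
IFIH1 promoter, chr2:162318635-162318934, minus strand: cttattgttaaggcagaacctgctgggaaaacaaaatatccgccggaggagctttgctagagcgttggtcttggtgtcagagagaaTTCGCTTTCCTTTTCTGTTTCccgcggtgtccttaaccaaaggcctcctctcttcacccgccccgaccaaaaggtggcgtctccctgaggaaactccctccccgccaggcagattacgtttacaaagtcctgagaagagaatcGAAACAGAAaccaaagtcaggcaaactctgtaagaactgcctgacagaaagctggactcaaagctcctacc
DDX60 promoter, chr4:168318703-168319002, minus strand: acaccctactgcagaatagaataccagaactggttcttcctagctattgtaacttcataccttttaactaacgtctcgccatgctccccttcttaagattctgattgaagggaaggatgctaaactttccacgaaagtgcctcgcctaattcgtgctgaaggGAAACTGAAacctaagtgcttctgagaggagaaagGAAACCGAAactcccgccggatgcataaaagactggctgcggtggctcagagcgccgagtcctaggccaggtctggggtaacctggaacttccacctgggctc
The IFIT1 promoter holds 2 matches, that of DDX60 holds 2, and that of IFIH1 holds 4, of which 3 overlap and merge into one capital run. Over the 39 interferon response genes tested, 30 matched the promoter table with 39 promoters, and 25 of these promoters (64.1%) held the motif. The share was 8.11% among all 35116 promoters of the table (2847 promoters). Of the 18 promoters of called members, 15 held it. The list was made of genes known as interferon-induced, so its higher share is no separate result about these data. A match is a description of letters and not evidence of binding.

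Of the 39 interferon response genes that passed the filter on low counts, out of 42 listed, 19 were called and all of these had the higher change in MDA-MB-231 (48.7%, against 3.8% of all genes in that direction). The median difference was -1.61, against -0.02 over all genes tested, and 37 of 39 differences were negative. In MDA-MB-231 23 members rose and none of the 39 fell, and in SKOV3 1 rose and 8 fell. With DESeq2 21 members were called, with only the 8 libraries 22, without the low-count filter 8, and without pairing 0. Without the MYC-vector pair of SKOV3 7 were called, without its control-vector pair 13, and without either pair of MDA-MB-231 2.

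The effectors rose by different amounts. IFIT3 went from 37.6 to 444.9 and from 18.7 to 147.5 CPM in MDA-MB-231 and stayed between 9.01 and 16.9 in SKOV3, a difference of -2.97 ± 0.29 (adjusted p = 0.00262). DDX60, an RNA helicase, went from 6.82 to 43.2 and from 2.24 to 21.7 CPM in MDA-MB-231, while SKOV3 held between 12 and 20.1; the difference was -3.05 ± 0.30. So the lines changed order, DDX60 being higher in SKOV3 in DMSO and higher in MDA-MB-231 in tipifarnib. IFI44 (-2.24 ± 0.32), HERC6 (-2.01 ± 0.31), SAMD9 (-1.63 ± 0.34) and SAMD9L (-1.24 ± 0.26) showed the same pattern of a rise in MDA-MB-231 and no call in SKOV3.

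OAS1, OAS2 and OAS3 make the messenger that activates RNase L, and all were called. OAS2 rose in MDA-MB-231, from 7.15 to 36.0 and from 1.64 to 5.45 CPM, with a difference of -1.93 ± 0.47. OAS3 instead fell in SKOV3, from 45.7 to 18.6 and from 58.4 to 19.0 CPM, and did not pass in MDA-MB-231 (0.59 ± 0.27); its difference was -2.05 ± 0.36. OAS1 was scarce, at 12 to 132 and 2 to 30 counts in the MDA-MB-231 pairs and 14 to 11 and 31 to 5 in SKOV3. IFI27 was likewise scarce in MDA-MB-231, at 6 to 72 and 2 to 22 counts. The membrane proteins IFITM2 and IFITM3 fell in SKOV3 (-1.09 ± 0.16 and -0.82 ± 0.23) and did not pass in MDA-MB-231. These are near-identical paralogs, so reads may be split between them. BST2, a tether of budding virus, rose in MDA-MB-231 (0.66 ± 0.15) and fell in SKOV3 (-0.52 ± 0.12).

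Transcription factors of the pathway differed less. IRF7 rose in both lines, by 0.93 in MDA-MB-231 and 0.84 in SKOV3. STAT2 rose in MDA-MB-231 (0.66) and its difference of -0.71 just missed the threshold (adjusted p = 0.055). RIGI, the second RNA sensor, rose in MDA-MB-231 (0.74), with a difference of -0.57 that did not pass (adjusted p = 0.371).

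Interferon ligands were at the limit of detection. IFNB1, the beta interferon gene, had 0 counts in all 8 libraries, which at 3 counts allows up to 0.108 to 0.144 CPM per library. The 13 IFNA genes matched by symbol had at most 1 count in any of them. IFNL1, a lambda interferon gene, had 0 counts in both MDA-MB-231 DMSO libraries and 27 and 18 in the control and MYC tipifarnib libraries, at least 8.57-fold and 5.03-fold higher, against 0 counts in all 4 SKOV3 libraries. The interferon-induced chemokine gene CXCL11 went from 0 to 41 and from 0 to 18 counts in MDA-MB-231 and had 0 to 3 in SKOV3. RSAD2, which makes the antiviral protein viperin, went from 3 to 154 and from 3 to 35 counts in MDA-MB-231 and had 0 to 8 in SKOV3. IFNL1, CXCL11 and RSAD2 were below the count filter and have no test. At 10 µM, a dose that differs, A549 changed by 0.16 ± 0.54 for IFIT1, 1.45 ± 0.26 for IFIT2 and 1.16 ± 0.25 for IFIH1.

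**Figure D2:**
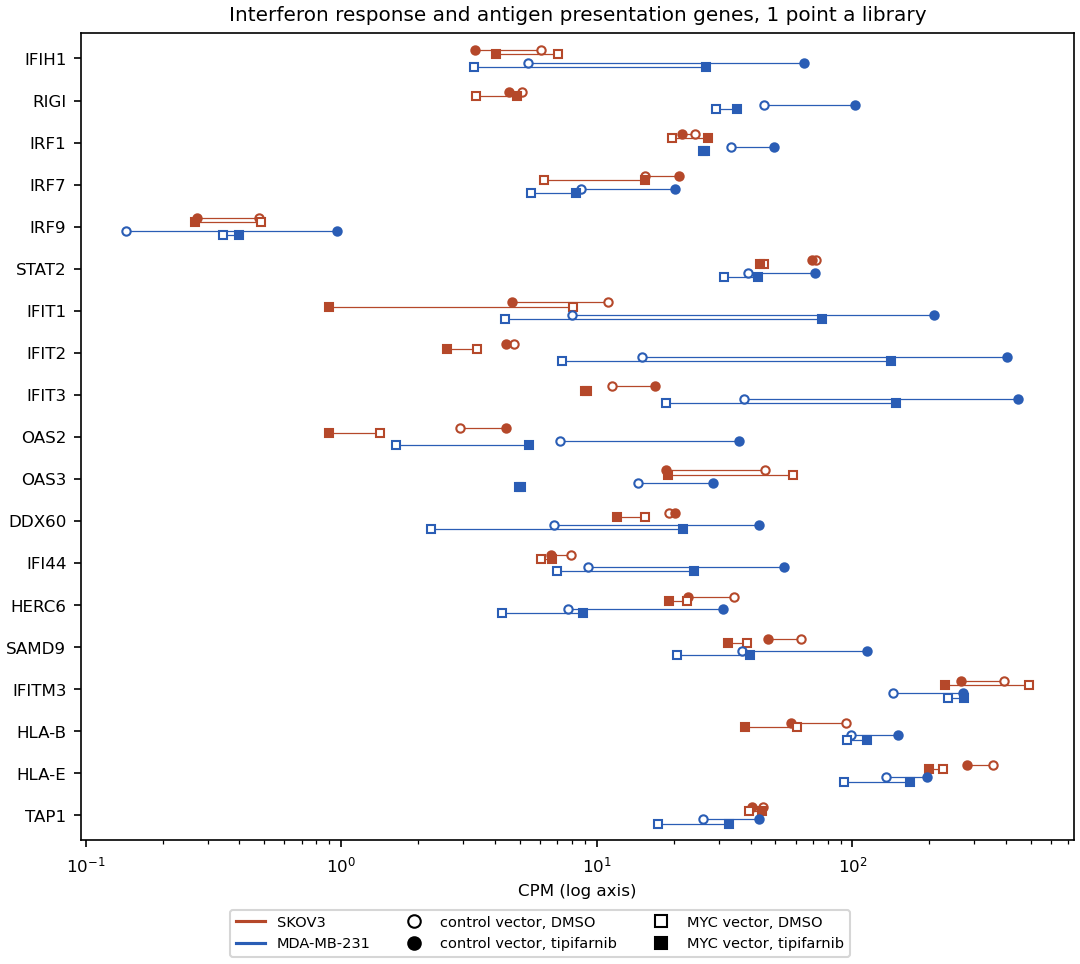
Level in CPM on a log axis of interferon response genes (sensors and transcription factors first, then effectors) and of HLA-B, HLA-E and TAP1; each point is 1 library, circles for the control vector and squares for the MYC vector, open for DMSO and filled for tipifarnib, and a line joins each pair. The MDA-MB-231 pairs (blue) of IFIT1, IFIT2 and IFIT3 reach 76.2 CPM or more in tipifarnib, while the SKOV3 pairs (red) of these genes stay at or below 16.9.

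Antigen presentation genes showed smaller differences in the same direction. Of 17 MHC class I pathway genes 6 were called (35.3%, against 7.42% of all genes tested). All 6 had the higher change in MDA-MB-231, and the median difference of the list was -0.79. HLA-B, a class I heavy chain, went from 99.2 to 150.9 and from 95.5 to 114.3 CPM in MDA-MB-231 and from 94.0 to 57.8 and from 60.6 to 38.1 in SKOV3. All changes of one line were opposite to those of the other, with a difference of -1.12 ± 0.17 (adjusted p = 0.0105). HLA-E (-0.96 ± 0.17), HLA-C (-1.16 ± 0.24), the trimming peptidase ERAP2 (-1.09 ± 0.19), the immunoproteasome subunit PSMB9 (-1.49 ± 0.34) and the peptide transporter TAP1 (-0.81 ± 0.21) were also called. The HLA heavy chain genes are near-identical in sequence, so their separate counts are uncertain. Without the MYC-vector pair of SKOV3, or without either pair of MDA-MB-231, none of the 17 was called.

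Of 32 inflammatory genes under NF-kB 20 rose in MDA-MB-231 and 8 in SKOV3, beside 1955 and 1192 of all 17096 genes. In the difference 5 were called higher in MDA-MB-231 and 1 in SKOV3 (18.8%, against 7.42% of all genes tested). The median difference was -0.30, and 12 of the 32 differences were positive. BIRC3, an inhibitor of cell death and a component of NF-kB signalling, went from 17.0 to 54.9 and from 15.3 to 57.2 CPM in MDA-MB-231, and from 1.65 to 1.36 and from 2.54 to 1.16 in SKOV3. Both MDA-MB-231 tipifarnib libraries lay far above all others, with a difference of -2.51 ± 0.30 (adjusted p = 0.00463). The feedback inhibitor NFKBIA (-1.30 ± 0.20), the subunit NFKB2 (-0.94 ± 0.15), NFKBIZ (-1.23 ± 0.23) and the chemokine CXCL3 (-2.33 ± 0.54) followed the same direction. The cytokine IL11 was the only called member with the higher change in SKOV3. It went from 93.4 to 33.1 and from 55.6 to 23.2 CPM in MDA-MB-231 and from 1.04 to 2.14 and from 0.636 to 2.51 in SKOV3. The difference was 2.86 ± 0.47 (adjusted p = 0.0126). The chemokine CXCL8 rose in both lines (3.88 in SKOV3 and 3.23 in MDA-MB-231), as did CXCL2 (2.89 and 3.18). Of the 32 genes 4 were called without the control-vector pair of SKOV3, and 0 without its MYC-vector pair.

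Immediate early genes split within the list. Of 27 tested, 7 were called with the higher change in MDA-MB-231 and JUN alone with the higher change in SKOV3. The called share was 29.6%, against 7.42% of all genes tested. JUNB, an AP-1 subunit, went from 18.5 to 83.1 and from 38.6 to 127.2 CPM in MDA-MB-231 and from 98.2 to 76.6 and from 131.6 to 83.0 in SKOV3. JUNB was thus higher in SKOV3 in DMSO and higher in MDA-MB-231 in tipifarnib, with a difference of -2.45 ± 0.25 (adjusted p = 0.00262). JUN, the partner subunit, went the other way, from 133.8 to 390.9 and from 68.8 to 354.6 CPM in SKOV3, against 187.3 to 210.4 and 129.8 to 136.0 in MDA-MB-231. Its difference was 1.84 ± 0.27 (adjusted p = 0.00948). The growth response factor EGR1 rose in MDA-MB-231, from 12.2 to 79.3 and from 42.3 to 265.7 CPM, while the SKOV3 pairs disagreed, with 41.7 and 44.7 in the control pair and 77.2 and 16.5 in the MYC pair. Its difference was -3.70 ± 0.77 (adjusted p = 0.0246). ZFP36, which marks inflammatory mRNAs for decay, rose in both lines and more in MDA-MB-231 (difference -1.29 ± 0.22). The nuclear receptors NR4A1 (-1.69 ± 0.36) and NR4A2 (-1.55 ± 0.36) and the antiproliferative gene BTG2 (-2.88 ± 0.33) were also called. BTG2 fell in SKOV3, from 5.90 to 1.48 and from 20.7 to 3.04 CPM, and did not pass in MDA-MB-231. Without the MYC-vector pair of SKOV3 the list held 1 gene called higher in SKOV3 and 2 called higher in MDA-MB-231.

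Genes that report RAS-ERK output, most of them feedback inhibitors or ETS factors, rose at 12 of 22 in SKOV3 and 3 of 22 in MDA-MB-231. Of all 17096 genes 1192 rose in SKOV3 and 1955 in MDA-MB-231. In the difference 7 were called higher in SKOV3 and 1, the receptor EPHA4, in MDA-MB-231. The called share was 36.4%, against 7.42% of all genes tested. The median difference was 0.93 and 21 of 22 differences were positive. DUSP4, a nuclear phosphatase of ERK, went from 32.0 to 72.7 and from 5.23 to 58.9 CPM in SKOV3 and from 555.2 to 351.1 and from 350.8 to 262.1 in MDA-MB-231. Levels of DUSP4 thus moved toward each other but remained higher in MDA-MB-231, with a difference of 2.75 ± 0.53 (adjusted p = 0.0195). ETV5, an ETS factor induced by ERK, went from 27.9 to 66.5 and from 14.7 to 73.9 CPM in SKOV3 and held 104.8 to 119.3 in MDA-MB-231 (difference 1.84 ± 0.34). Cyclin D1 (CCND1) rose in SKOV3, from 165.6 to 224.4 and from 56.8 to 199.9 CPM, and fell in MDA-MB-231, from 616.6 to 373.2 and from 513.3 to 256.3. That is a difference of 1.98 ± 0.36 (adjusted p = 0.0161). DUSP5 rose in both lines, by 2.84 ± 0.17 in SKOV3 and 1.45 ± 0.15 in MDA-MB-231. ETV4 (1.50 ± 0.36), DUSP7 (0.97 ± 0.19) and SPRED1 (0.78 ± 0.20) completed the called members. The SKOV3 changes in this list were larger in the MYC pair than in the control pair for DUSP4 (3.47 and 1.18), ETV5 (2.33 and 1.25) and CCND1 (1.81 and 0.44). Without the control-vector pair of SKOV3 13 members were called, all higher in SKOV3, without its MYC-vector pair 2, and without either pair of MDA-MB-231 0.

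In the EGFR family 1 ligand and 2 receptors of 13 genes were called (23.1%, against 7.42% of all genes tested). HBEGF, a ligand of EGFR, went from 7.51 to 22.1 and from 4.04 to 18.9 CPM in SKOV3 and from 71.4 to 65.3 and from 75.1 to 59.3 in MDA-MB-231 (difference 2.10 ± 0.24, adjusted p = 0.00428). ERBB2, the amplified receptor gene of SKOV3, fell there from 5746.7 to 2834.8 and from 2577.8 to 1168.6 CPM and held 56.0 to 77.3 in MDA-MB-231 (difference -1.16 ± 0.18, adjusted p = 0.0105). GRB7, its neighbour in the same amplicon and an adaptor of receptor kinases, fell in SKOV3 from 40.1 to 9.65 and from 49.2 to 5.95 CPM, with a difference of -3.50 ± 0.48. ERBB2 and GRB7 thus fell in both SKOV3 pairs, and neither passed in MDA-MB-231. ERBB3 fell in SKOV3 (-1.39 ± 0.39), with a difference of -2.27 ± 0.50.

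Ribosome biogenesis gave the largest share of called genes of all lists described, 16 of 31 tested, each with the higher change in SKOV3. That is 51.6%, against 7.42% of all genes tested. All 31 differences were positive, with a median of 0.64. In MDA-MB-231 21 members fell and none of the 31 rose, and in SKOV3 2 rose and none fell. NOL6, a nucleolar protein of the small subunit processome, went from 152.0 to 77.6 and from 200.5 to 83.1 CPM in MDA-MB-231, and from 63.7 to 79.2 and from 118.7 to 108.1 in SKOV3. The MDA-MB-231 libraries were the higher ones in DMSO and the lower ones in tipifarnib, with a difference of 1.21 ± 0.20 (adjusted p = 0.0123). GRWD1, a ribosome assembly factor, went from 140.4 to 81.8 and from 159.6 to 75.6 CPM in MDA-MB-231 and held 76.1 to 104.9 in SKOV3 (difference 1.02 ± 0.16, adjusted p = 0.0108). UTP20 (1.23 ± 0.20), NIP7 (0.95 ± 0.15), the RNA polymerase I subunits POLR1A (0.80 ± 0.15) and POLR1E (0.95 ± 0.18) and the box C/D proteins NOP56 (0.74 ± 0.19) and NOP58 (0.65 ± 0.17) were among the called members. The 16 differences ran from 0.61 to 1.23. The E-box CACGTG, a sequence that MYC and related factors bind, was in 12 of 31 promoters of 25 members (38.7%), and in 7.26% of all promoters of the table. This share describes the promoters of the listed genes and is no result about the difference between the lines. Without the control-vector pair of SKOV3 4 members were called, without its MYC-vector pair 2, and without either pair of MDA-MB-231 0.

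Nucleotide and polyamine synthesis genes behaved alike, with 8 of 25 called higher in SKOV3 and all 25 differences positive (median 0.52). The called share was 32%, against 7.42% of all genes tested. In MDA-MB-231 17 fell and none of the 25 rose, and in SKOV3 5 fell and 3 rose. Spermidine synthase (SRM) went from 105.8 to 64.4 and from 176.3 to 79.4 CPM in MDA-MB-231 and from 37.5 to 47.9 and from 73.2 to 84.0 in SKOV3. Its pairs moved down in one line and up in the other, a difference of 1.21 ± 0.19 (adjusted p = 0.0108). CTP synthase (CTPS1, 0.95 ± 0.18) and UMPS (0.86 ± 0.20) of pyrimidine synthesis fell in MDA-MB-231 and did not pass in SKOV3. Ornithine decarboxylase (ODC1), the first enzyme of polyamine synthesis, instead rose in SKOV3 (0.66 ± 0.11) and did not pass in MDA-MB-231. Only 3 members were called without the control-vector pair of SKOV3, and 0 without its MYC-vector pair.

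DNA replication genes fell in both lines, and further in MDA-MB-231. There 32 of 32 fell, with a median change of -1.27, and in SKOV3 24 fell, with a median of -0.68. The difference was called at 11 (34.4%, against 7.42% of all genes tested), each with the deeper fall in MDA-MB-231. RRM2 (ENSG00000171848.9), the regulated subunit of ribonucleotide reductase, went from 312.1 to 49.8 and from 314.3 to 47.1 CPM in MDA-MB-231 and from 183.1 to 55.8 and from 139.7 to 62.8 in SKOV3. DMSO levels were higher in MDA-MB-231 and tipifarnib levels lower there than in SKOV3, with a difference of 1.26 ± 0.20 (adjusted p = 0.0113). The licensing factor CDC6 fell in MDA-MB-231 from 173.7 to 65.7 and from 181.9 to 46.9 CPM and did not pass in SKOV3 (-0.22 ± 0.21); its difference was 1.46 ± 0.30. The helicase subunits MCM2 (0.81 ± 0.18), MCM4 (0.93 ± 0.21) and MCM5 (0.77 ± 0.18), the loading factor MCM10 (1.27 ± 0.21), CDC45, GINS2, RFC2, FEN1 and the activator E2F1 were the other called members. E2F8 had the deepest fall in SKOV3 (-2.29) and fell by a like amount in MDA-MB-231 (-2.05). Without the control-vector pair of SKOV3 3 members were called, and without any 1 of the other 3 pairs 0.

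Mitosis genes fell in both lines. The difference was called at 1 of 30 (3.33%, against 7.42% of all genes tested). In SKOV3 30 of 30 fell (median -1.04) and in MDA-MB-231 27 fell (median -0.73). Only the mitotic kinesin KIF20A was called in the difference (-0.89 ± 0.22, adjusted p = 0.043), with 106.2 to 34.9 and 119.9 to 27.3 CPM in SKOV3 against 189.6 to 82.1 and 167.8 to 100 in MDA-MB-231. KIF20A thus fell in both lines, and further in SKOV3. PLK1, a mitotic kinase, changed by -1.23 in SKOV3 against -1.04 in MDA-MB-231, and the proliferation marker MKI67 by -1.07 against -1.08; each fell in both lines. Of the 30 mitosis differences 24 were negative and 6 positive. Both MDA-MB-231 pair changes lay above both SKOV3 pair changes at 17 members, and the reverse held at 1. With so few pairs a side, the low called share does not show that the lines responded alike. The mitosis median difference, -0.25, had the opposite sign to that of DNA replication, 0.50. This contrast between the lists was not tested.

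**Figure D3:**
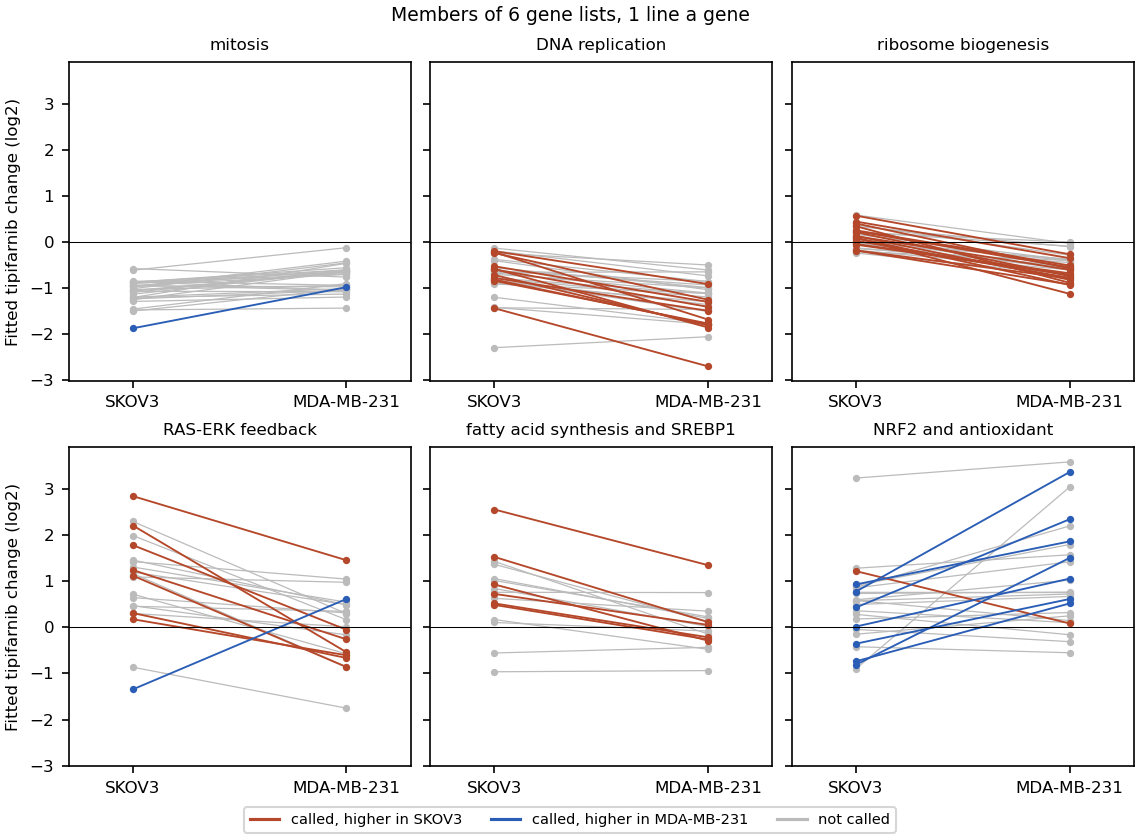
Fitted tipifarnib change (log2) of each tested member of 6 gene lists, with SKOV3 at the left and MDA-MB-231 at the right of each panel; a line is 1 gene, red if called higher in SKOV3, blue if called higher in MDA-MB-231 and grey if not called. All 31 ribosome biogenesis lines run down to the right, 30 of 32 DNA replication lines do so from already negative values, and 24 of 30 mitosis lines run upward.

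In fatty acid synthesis 13 of 17 tested genes rose in SKOV3 against 2 in MDA-MB-231. In the difference 6 were called (35.3%, against 7.42% of all genes tested), each higher in SKOV3. ELOVL6, which lengthens saturated fatty acids, went from 12.2 to 39.1 and from 17.8 to 46.3 CPM in SKOV3 and held 113.2 to 137.4 in MDA-MB-231. Both SKOV3 pairs rose while the MDA-MB-231 pairs moved little, with a difference of 1.41 ± 0.20 (adjusted p = 0.00735). Fatty acid synthase (FASN) went from 292.7 to 666.9 and from 522.3 to 830.9 CPM in SKOV3 and from 567.4 to 454.2 and from 962.2 to 803.4 in MDA-MB-231 (difference 1.22 ± 0.21). ACLY, ACSL1 and ACSL3 rose in SKOV3 alone, and ACSS2, which makes acetyl-CoA from acetate, rose in both lines, by 2.55 ± 0.21 in SKOV3 and 1.35 ± 0.21 in MDA-MB-231. Cholesterol synthesis genes rose in both lines, 20 of 25 in SKOV3 and 12 in MDA-MB-231, beside 1192 and 1955 of all 17096 genes. In the difference 5 were called higher in SKOV3 and 1 higher in MDA-MB-231 (24% in either direction, against 7.42% of all genes tested). Without the low-count filter 1 was called in each direction, and without pairing 0. DHCR7, the last enzyme of the pathway, went from 50.8 to 302.0 and from 118.6 to 366.2 CPM in SKOV3 and from 187.5 to 252.6 and from 312.4 to 398.2 in MDA-MB-231 (difference 1.70 ± 0.30, adjusted p = 0.0145). ACAT2 (1.51 ± 0.28) and NSDHL (1.02 ± 0.21) were among the others. SC5D went against them: it rose in MDA-MB-231, from 18.9 to 40.4 and from 30.5 to 65.7 CPM, and did not pass in SKOV3 (difference -1.23 ± 0.15). Without the control-vector pair of SKOV3 3 fatty acid genes were called higher in SKOV3 and 1 higher in MDA-MB-231, without its MYC-vector pair 4 and 0, and without either pair of MDA-MB-231 none of the 17.

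The integrated stress response, in which ATF4 induces amino acid synthesis and transport genes, rose in both lines: 25 of 31 genes in SKOV3 against 12 in MDA-MB-231. The difference was called at 4 (12.9%, against 7.42% of all genes tested), each higher in SKOV3. PHGDH, the first enzyme of serine synthesis, went from 4.51 to 93.2 and from 33.3 to 254.0 CPM in SKOV3 and held 0.961 to 2.42 in MDA-MB-231, with a difference of 3.38 ± 0.83 (adjusted p = 0.0406). The folate enzymes MTHFD2 (1.55 ± 0.38) and SHMT2 (0.97 ± 0.23) and the cystine transporter SLC7A11 (1.13 ± 0.28) also rose in SKOV3 alone. PHGDH had only 21 to 67 counts in the MDA-MB-231 libraries. Of 6 other fits with all pairs and the pairing kept, PHGDH was called in 3, MTHFD2 in 2, SLC7A11 in 4 and SHMT2 in 5. ATF4 rose in both (SKOV3 by 1.21, MDA-MB-231 by 0.63), and its difference of 0.57 did not pass (adjusted p = 0.125). DDIT3 rose by 2.40 and 2.33. The count moved with the fit: 14 were called higher in SKOV3 and 1 higher in MDA-MB-231 with only the 8 libraries, 2 with limma-voom, 1 with the robust legacy fit, 2 without the control-vector pair of SKOV3, and 0 without the low-count filter, without pairing or without any 1 of the other 3 pairs. Among the aminoacyl-tRNA synthetases, which charge tRNAs, 4 of 18 were called (22.2%, against 7.42% of all genes tested), all higher in SKOV3. IARS1 went from 178.7 to 463.0 and from 275.6 to 586.2 CPM in SKOV3 and held 511.9 to 573.0 in MDA-MB-231, so that SKOV3 approached the MDA-MB-231 level in the control pair and passed it in the MYC pair (difference 1.19 ± 0.22, adjusted p = 0.0169). TARS1 (0.78 ± 0.19), YARS1 (0.94 ± 0.23) and RARS1 (0.77 ± 0.18) were the others, of which RARS1 fell in MDA-MB-231. The ATF4-type letters TGATGNAA were in 7 of 19 promoters of 14 of these genes (36.8%), and in 3.62% of all promoters. Over the integrated stress response list they were in 6 of 38 (15.8%) and in 0 of the 2 promoters of its called members. Such shares describe the promoters of the listed genes and are no result about the difference between the lines. Without any 1 pair no synthetase was called.

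**Figure D4:**
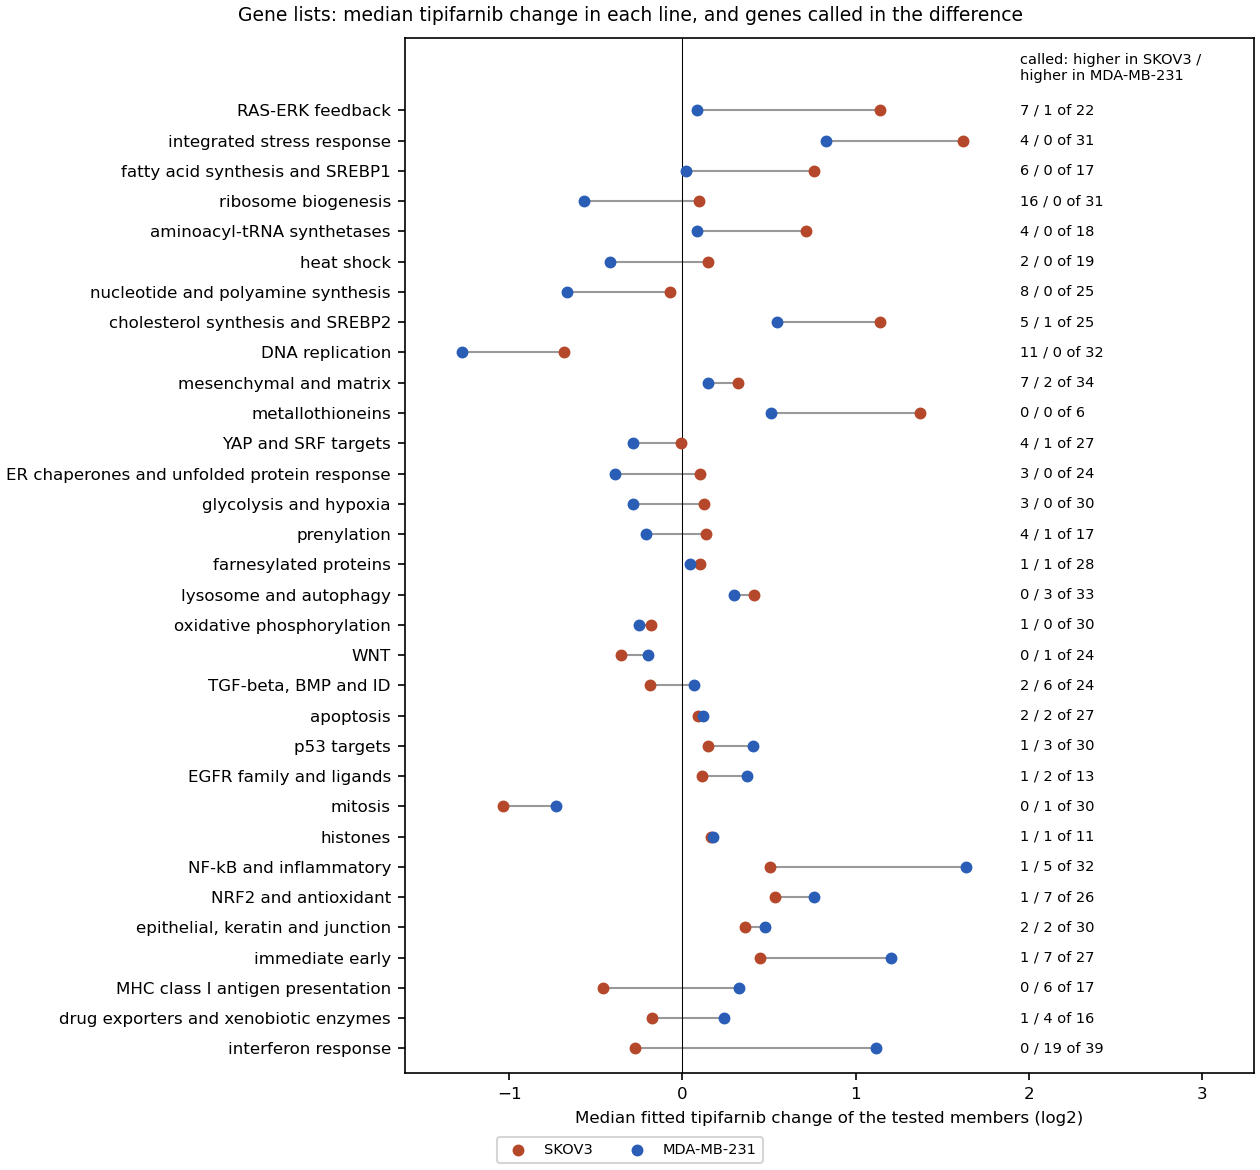
Median fitted tipifarnib change (log2) over the tested members of the gene lists in SKOV3 (red) and MDA-MB-231 (blue), ordered by the median difference, with the number of members called in each direction of the difference at the right. The medians lie farthest apart for interferon response, at -0.27 and 1.12, and on the other side for RAS-ERK feedback, at 1.14 and 0.09.

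Protein prenylation enzymes include the drug's target. FNTA (ENSG00000168522.8), the alpha subunit of farnesyltransferase, held 40.3 to 49.9 CPM in SKOV3 and 23.2 to 35.7 in MDA-MB-231, and FNTB (ENSG00000257365.3), the catalytic beta subunit, 5.77 to 10.1 and 5.86 to 7.40. Neither passed in either line, and the differences were -0.17 ± 0.18 (adjusted p = 0.614) and -0.31 ± 0.26 (adjusted p = 0.516). Of the enzymes that act after farnesylation, 2 of 3 were called; RCE1, a CAAX protease, did not pass (0.12 ± 0.28, adjusted p = 0.853). ZMPSTE24, the protease that cleaves prelamin A, went from 143.4 to 102.8 and from 136.6 to 87.1 CPM in MDA-MB-231 and from 109.0 to 130.5 and from 89.5 to 123.8 in SKOV3 (difference 0.93 ± 0.16, adjusted p = 0.0129). ICMT, which methylates the prenylated cysteine, fell in MDA-MB-231 from 218.2 to 118.0 and from 170.7 to 82.1 CPM and did not pass in SKOV3 (difference 0.84 ± 0.17). The geranylgeranyl diphosphate synthase GGPS1 rose in MDA-MB-231, from 26.0 to 46.0 and from 27.1 to 54.5 CPM, and held 51.8 to 63.4 in SKOV3 (difference -0.79 ± 0.18). CHML and NUS1 fell in MDA-MB-231 and brought the called members to 5 of 17 (29.4%, against 7.42% of all genes tested). Of these, 2 were called without the control-vector pair of SKOV3, and 0 without its MYC-vector pair.

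Among 28 genes for farnesylated proteins 2 were called, a share near the 7.42% of all genes tested. RHOB (ENSG00000143878.8), a GTPase that can carry either a farnesyl or a geranylgeranyl group, went from 8.98 to 83.0 and from 12.9 to 122.8 CPM in MDA-MB-231, and from 99.0 to 186.4 and from 83.0 to 150.6 in SKOV3. RHOB rose in both lines, from a lower DMSO level in MDA-MB-231, by 3.23 ± 0.17 there and 0.89 ± 0.15 in SKOV3 (difference -2.34 ± 0.22, adjusted p = 0.00262). RND3, a small GTPase that loosens actin stress fibres, rose in SKOV3 from 117.8 to 452.4 and from 78.4 to 420.6 CPM and did not pass in MDA-MB-231, with 192.3 to 268.5 and 171.1 to 234.7 (difference 1.71 ± 0.28, adjusted p = 0.012). HRAS and NRAS did not pass in either line, with differences of 0.44 and 0.45. LMNB1 fell in SKOV3 (-1.44) and MDA-MB-231 (-1.08), and its difference of -0.37 did not pass. At 10 µM, a different dose, RHOB changed by 1.4 ± 0.15 in A549.

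Of 26 NRF2-type genes 16 rose in MDA-MB-231 and 12 in SKOV3, and of 16 drug exporters and xenobiotic enzymes 6 rose and 3 fell in MDA-MB-231, and 1 rose and 6 fell in SKOV3. Of the 26 NRF2-type genes 7 were called higher in MDA-MB-231 and 1, SLC7A11, higher in SKOV3. The called share was 30.8%, against 7.42% of all genes tested. AKR1C1, a steroid and aldehyde reductase, went from 1.82 to 22.2 and from 1.98 to 17.6 CPM in MDA-MB-231 and from 347.1 to 469.2 and from 259.1 to 562.1 in SKOV3. It rose in both lines and remained far higher in SKOV3 (difference -2.59 ± 0.35, adjusted p = 0.00725). AKR1C2 and AKR1C3 had differences of -1.91 ± 0.39 and -1.04 ± 0.19, and because the AKR1C genes are close paralogs their separate counts are uncertain. Glutathione reductase (GSR, -0.97 ± 0.16) and UGDH (-1.25 ± 0.15) rose in MDA-MB-231, and UGDH fell in SKOV3. CYP1B1, a cytochrome of oestrogen and hydrocarbon metabolism, went from 12.3 to 59.7 and from 14.5 to 132.8 CPM in MDA-MB-231 and from 358.5 to 205.0 and from 355.4 to 266.8 in SKOV3. The levels of CYP1B1 approached each other, with a difference of -3.36 ± 0.27 (adjusted p = 0.00154). The exporters ABCC2 (-2.31 ± 0.27) and ABCC3 (-0.93 ± 0.22) had the higher change in MDA-MB-231, and the cholesterol exporter ABCA1 fell there, from 33.8 to 6.36 and from 15.1 to 4.33 CPM (difference 1.96 ± 0.26). Without the MYC-vector pair of SKOV3 3 of the 26 NRF2-type genes were called, without its control-vector pair 8, and without either pair of MDA-MB-231 0.

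Matrix, junction and morphogen genes differed in both directions. TNC, the matrix protein tenascin C, went from 4.99 to 54.4 and from 1.83 to 48.1 CPM in SKOV3 and held 80.9 to 126.0 in MDA-MB-231, so that SKOV3 approached the MDA-MB-231 level (difference 3.66 ± 0.36, adjusted p = 0.00262). TIMP3, an inhibitor of matrix proteases, instead fell in MDA-MB-231, from 10.1 to 1.83 and from 4.61 to 0.722 CPM, and held 0.710 to 1.67 in SKOV3 (difference 2.91 ± 0.48). SNAI2, a repressor of epithelial genes, rose in both lines and more in SKOV3 (difference 1.69 ± 0.33), as 35.3 to 149.9 and 10.4 to 101.2 CPM there. Of 34 mesenchymal and matrix genes 7 were called higher in SKOV3 and 2, the collagenase MMP1 and COL3A1, higher in MDA-MB-231. The called share was 26.5%, against 7.42% of all genes tested. COL3A1 rested on few counts, 8 to 4 and 90 to 2 in SKOV3 and 2 to 1 and 1 to 27 in MDA-MB-231. Among junction genes CLDN7 rose in MDA-MB-231, from 8.45 to 22.7 and from 8.14 to 24.8 CPM, and fell in SKOV3, from 6.03 to 2.37 and from 9.61 to 3.54 (difference -2.91 ± 0.27, adjusted p = 0.00226). The related CLDN4 rose in SKOV3, from 9.42 to 38.8 and from 13.7 to 60.4 CPM, and did not pass in MDA-MB-231 (difference 1.41 ± 0.34). The YAP targets CCN2 (2.0 ± 0.44) and CRIM1 (1.72 ± 0.22) fell in MDA-MB-231, and CRIM1 rose in SKOV3. Without the MYC-vector pair of SKOV3 the matrix list held 1 gene called in each direction.

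Of 24 TGF-beta, BMP and ID genes 8 were called in the difference (33.3%, against 7.42% of all genes tested). The list as a whole did not lean to either line, with a median difference of -0.04 and 12 differences positive and 12 negative. The ID genes, which encode inhibitors of differentiation factors and are induced by BMP signalling, fell in SKOV3. ID3 went from 33.2 to 5.45 and from 54.8 to 6.80 CPM in SKOV3 and from 23.1 to 17.4 and from 44.3 to 22.9 in MDA-MB-231, a fall in both that was deeper in SKOV3 (difference -2.12 ± 0.23, adjusted p = 0.00333). ID1 fell in SKOV3 from 409.2 to 126.8 and from 301.9 to 104.5 CPM and did not pass in MDA-MB-231 (difference -1.58 ± 0.25). ID2 fell in SKOV3 and rose in MDA-MB-231, from 2.06 to 4.62 and from 2.41 to 4.98 CPM (difference -2.50 ± 0.42). BMP4, a ligand of the pathway, fell in SKOV3 from 87 to 17 and from 22 to 8 counts and held 24.7 to 42.9 CPM in MDA-MB-231 (difference -2.02 ± 0.44). In the list of 24 TGF-beta, BMP and ID genes 6 were called in this direction and 2, LTBP2 and TGFBR2, in the other, and without the MYC-vector pair of SKOV3 2 and 0.

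Some of the widest differences came from genes outside these groups. RGS4 (ENSG00000117152.9), which shortens G protein signals, went from 12 to 3.48 and from 6.55 to 1.12 CPM in MDA-MB-231 and from 0.434 to 3.38 and from 0.0748 to 2.86 in SKOV3, the last DMSO value being 2 counts. The lines thus exchanged order or met, with the largest positive difference of all called genes, 5.74 ± 0.62 (adjusted p = 0.00452). IGFBP4 (ENSG00000141753.5), which binds insulin-like growth factors, went from 1887.6 to 801.6 and from 1539.8 to 478.4 CPM in MDA-MB-231 and rose from 5 to 69 and from 3 to 41 counts in SKOV3. Every MDA-MB-231 library stayed far above every SKOV3 library, and the difference was 5.21 ± 0.43 (adjusted p = 0.00154). FGF5, a growth factor, fell in MDA-MB-231 from 298.9 to 133.6 and from 288.0 to 157.3 CPM and rose in SKOV3 from 2.69 to 8.56 and from 0.187 to 2.33 (difference 3.06 ± 0.36, adjusted p = 0.00542).

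NAV3, a microtubule-binding protein, rose in SKOV3 from 0.477 to 9.57 and from 0.523 to 10.6 CPM and less in MDA-MB-231, from 71.9 to 104.3 and from 60.6 to 120.6 (difference 3.55 ± 0.43, adjusted p = 0.00459). LCP1, an actin-bundling protein, had 0 counts in the SKOV3 control DMSO library and 55 in its tipifarnib library, at least 16.4-fold higher, and went from 6 to 135 counts in the MYC pair. It also rose in MDA-MB-231, from 9.08 to 23.4 and from 7.41 to 42.5 CPM, and its fitted difference was 3.14 ± 0.82 (adjusted p = 0.0441). CALB2 (3.16 ± 0.71), DNER (2.90 ± 0.67), the transporter SLCO4A1 (2.94 ± 0.61) and the noncoding RNA CASC8 (3.26 ± 0.75) completed the 12 largest positive differences among named genes with a mean of at least 1 CPM in each line. That mean includes the tipifarnib libraries. Genes near the floor in SKOV3 DMSO, such as RGS4, IGFBP4, CALB2 and LCP1, reached it only through their treated libraries, so the ranking favours such rises. CALB2 and DNER rose in SKOV3 from 8 counts or fewer, whereas SLCO4A1 and CASC8 fell in MDA-MB-231 and did not pass in SKOV3.

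On the other side BMF, a cell death activator of the BCL2 family, went from 1.01 to 7.55 and from 1.16 to 6.97 CPM in MDA-MB-231 and from 22.8 to 12.6 and from 28.3 to 8.10 in SKOV3. BMF thus rose in one line and fell in the other so that the treated levels approached each other, with a difference of -4.04 ± 0.44 (adjusted p = 0.00333). RRAD, a small GTPase, fell in SKOV3 from 44.4 to 16.2 and from 35.1 to 8.91 CPM and rose in MDA-MB-231 from 5 to 55 and from 22 to 87 counts (difference -3.93 ± 0.47, adjusted p = 0.00459). ELF3, an epithelial transcription factor, fell in SKOV3 from 13.5 to 9.72 and from 16.6 to 5.24 CPM and rose in MDA-MB-231 from 0.336 to 3.11 and from 0.517 to 2.09 (difference -3.59 ± 0.55, adjusted p = 0.0105). SLC2A12, a sugar transporter, fell in SKOV3 alone, from 8.42 to 0.895 and from 7.70 to 0.134 CPM (difference -3.66 ± 0.61), the last value being 3 counts. In the same ranking, which covers genes with a mean of at least 1 CPM in each line, MEGF6 (-3.60 ± 0.75), the potassium channel KCNJ11 (-3.55 ± 0.75) and CA11 (-3.55 ± 0.49) were the other genes among the 12 largest negative differences. The SKOV3 pairs of MEGF6 moved in opposite directions, from 45.2 to 14.1 and from 7.25 to 10.6 CPM. On this side too the mean includes the tipifarnib libraries. In MDA-MB-231 ELF3, at 0.336 and 0.517 CPM in DMSO, and RRAD, at 5 and 22 counts, reached it only through their treated libraries. The ranking favours such rises.

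**Figure D5:**
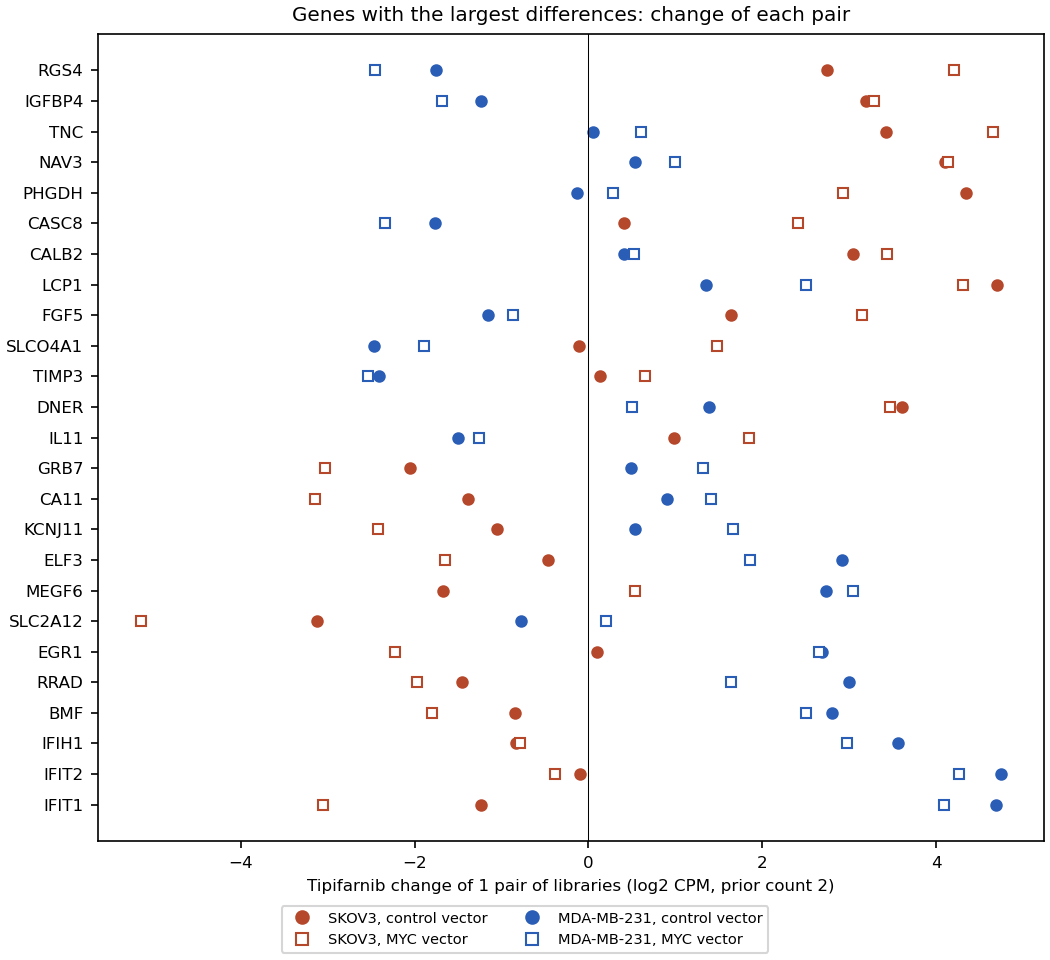
Tipifarnib change (log2 CPM with a prior count of 2, x axis) of each pair for the 12 largest positive and 12 largest negative differences and IL11, ordered by the difference. The ranking covers called, named genes with a mean of at least 1 CPM in each line. Circles are control-vector pairs, squares MYC-vector pairs, red SKOV3 and blue MDA-MB-231. A gene was shown only if red and blue did not overlap, so their separation was set by that choice. RGS4 had 2.74 and 4.20 in SKOV3 against -1.76 and -2.46 in MDA-MB-231.

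The groups below each held at most 4 called genes, shares of 3.33% to 14.8% against 7.42% of all genes tested. Single members could still differ widely, such as CTSS (-5.77) and WNT10A (-4.46), which did not reach a mean of 1 CPM in each line. In oxidative phosphorylation 1 of 30 genes was called, CYCS, and in lysosome and autophagy 3 of 33, GABARAPL1, TFEB and CTSS, each higher in MDA-MB-231, with medians of the difference of 0.06 and 0.07. TFEB, the regulator of lysosome genes, went from 2.88 to 5.12 and from 2.93 to 5.49 CPM in MDA-MB-231 and from 19.9 to 10.5 and from 24.3 to 10.7 in SKOV3 (difference -1.92 ± 0.32). Of 30 p53 targets 4 were called, AEN higher in SKOV3 and TP53INP1, BTG2 and TRIM22 higher in MDA-MB-231. Apart from BMF and BIRC3, the 27 apoptosis genes gave the death receptor TNFRSF10A (1.10 ± 0.21) and the survival gene BCL2L1 (1.26 ± 0.31), both higher in SKOV3. Of 24 endoplasmic reticulum chaperone and unfolded protein response genes 3 were called, each higher in SKOV3. Among these HSPA5 rose in SKOV3, from 767.1 to 945.3 and from 559.7 to 1109.7 CPM. It fell in MDA-MB-231, from 1080.5 to 743.3 and from 1082.9 to 684.8 (difference 1.24 ± 0.23, adjusted p = 0.0173). In glycolysis and hypoxia 3 of 30 were called higher in SKOV3, HK2, ADM and SLC2A1, and 1 of 24 WNT genes, WNT10A, was called higher in MDA-MB-231.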

How the data were processed

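The deposited table holds read counts per Ensembl gene for 12 libraries, made by the authors with TopHat2, HTSeq and build hg19, per the submitters' processing notes; versions are not given in the sources used here. Per the labels' protocols, RNA was made into libraries with a SMARTER mRNA-seq kit. Its 57820 gene rows were used as counts. The 5 summary rows without a gene, 17.5% to 19.9% of the totals of the 8 libraries, were left out. Symbols were matched for 51996 identifiers.

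Counts were fitted with edgeR 4.0.16 (R 4.3.3), with TMM scaling and its filter on low counts, which kept 17096 genes. The model gave each line its own level, MYC-vector effect and tipifarnib effect, and so paired tipifarnib with DMSO by vector, which the labels state; it left 3 residual degrees of freedom from all 12 libraries, so any MYC-by-tipifarnib interaction entered the error. A549 entered the filter on low counts and the estimate of the spread, not the contrast. The difference is a contrast of that model, with Benjamini-Hochberg adjustment over all genes tested. An exact permutation of 2 pairs against 2 cannot give a two-sided p below 0.333 and was not used. Pair changes are log2 CPM with a prior count of 2. The fit was tested on simulated data.

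Named genes are MYC, FNTA, FNTB; the 12 largest called differences each way with a mean of at least 1 CPM in each line, non-overlapping pairs and a symbol that is not a clone, LINC or LOC name; the 4 largest each way that changed in opposite directions; and members of the gene lists that were called or had the smallest p. Other members named without a call in the difference were chosen after their values were seen. Members and lists were chosen with earlier results of these data known. Alternatives were DESeq2 1.42.0, its size factors, limma-voom (limma 3.58.1), no low-count filter, only the 8 libraries, a robust legacy fit, no pairing, and leaving out each pair. Some genes and a gene list are not reported here.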

Additional observations from a re-analysis of the deposited data

Results flagged for a closer look

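Each result here was picked out because the same contrast, tipifarnib against DMSO, gave different effects in the 2 lines by the interaction term of the edgeR quasi-likelihood fit. This holds for 1268 genes. The 4 largest differences each way among genes that changed in opposite directions were 5.74 for RGS4, 5.21 for IGFBP4, 3.06 for FGF5 and 2.86 for IL11, which rose in SKOV3 and fell in MDA-MB-231, and -6.33 for IFIT1, -4.15 for IFIH1, -4.04 for BMF and -3.93 for RRAD, which fell in SKOV3 and rose in MDA-MB-231. They rest on the same fit as the results above and add no separate evidence. RGS4, IGFBP4 and IL11 in SKOV3, and RRAD in MDA-MB-231, reached the required mean of 1 CPM only through their tipifarnib libraries. Without 1 of the 4 pairs, IGFBP4 and IFIH1 kept an adjusted p of at most 0.0211 and 0.0374, whereas the highest adjusted p of IFIT1 and of RGS4 was 0.0685.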

How the results depend on the processing

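The difference was called at 1268 genes, at 1280 with DESeq2 size factors, 1821 with DESeq2, 1171 with limma-voom, 1746 with only the 8 libraries and 1351 with the robust legacy fit. Without the low-count filter, which tested 33136 genes, 334 were called in the difference and 1646 in SKOV3 (2629 with the filter). With no replicate block, so that tipifarnib and DMSO libraries were not paired by vector, the counts were 0 for the difference, 405 for SKOV3 and 884 for MDA-MB-231 (4112 with the block). Leaving out 1 pair gave 4 to 762 genes for the difference, 514 to 1754 for SKOV3 and 486 to 3952 for MDA-MB-231; such fits hold fewer libraries, and the lone pair of a line is assumed to vary like the other pairs. None of the 188 genes recomputed under these alternatives reversed its direction (187 under DESeq2). The called ones had non-overlapping pairs, so leaving out 1 pair could hardly reverse them, and this count is no measure of stability. Without pairing, 185 of the 188 had passed before and no longer did. Named genes outside the 188 were not recomputed. DESeq2 split its calls into 1004 higher in SKOV3 and 817 higher in MDA-MB-231, against 618 and 650. A count of 3 in a library corresponds to 0.108 to 0.144 CPM, which limits genes such as RGS4, IGFBP4 and LCP1 in SKOV3.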
